A study of Mus musculus with 2 samples.

Results

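A set of 9 genes that code for enzymes of the citric acid cycle and of the malate-aspartate shuttle was described in long-read RNA sequencing of mouse left cerebral cortex: Cs, Idh3a, Idh3b, Idh3g, Ogdh, Suclg1, Mdh1, Mdh2 and Got1. They were taken by gene symbol from the deposited tables, and all 9 were among the 18366 annotated mouse genes with at least 1 read. The samples were from male mice of the B6CASTF1/J cross (C57BL/6J by the wild-derived CAST/EiJ strain) at 14 days of age, untreated as far as the labels say, with 2 replicates in 1 group. Each library was made from 2 µg of total RNA with spike-in RNAs added. The labels give both samples 1 donor identifier and mention several males, so they may be pools or technical repeats. The p-values below compare the reads of 1 library with those of the other and cover counting error only, with reads taken as independent. In long-read sequencing 1 read covers most or all of a transcript, so the exons it joins are seen on the same molecule.

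The citric acid cycle runs in the mitochondrial matrix, where it oxidises the acetyl group that pyruvate, ketone bodies and fatty acids supply and passes the electrons to the respiratory chain. Citrate synthase (Cs) starts it, isocitrate dehydrogenase 3 and the 2-oxoglutarate dehydrogenase complex carry out its oxidative decarboxylations, succinyl-CoA ligase yields a nucleoside triphosphate, and malate dehydrogenase regenerates oxaloacetate. The malate-aspartate shuttle carries reducing equivalents of cytosolic NADH into mitochondria, with cytosolic and mitochondrial forms of malate dehydrogenase (Mdh1, Mdh2) and of aspartate aminotransferase (Got1, Got2) and with carriers in the inner membrane. Neurons depend on this shuttle for the oxidation of glucose, and the same reactions exchange carbon with glutamate.

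The exons on which the results below turn are shown first, as the GENCODE M21 reference sequences on mm10 (the C57BL/6J allele). Idh3g codes for the gamma subunit of isocitrate dehydrogenase 3 and lies on the minus strand of chromosome X. The lines show the joint between exon 2 and exon 3 (chrX:73782084-73782694), 20 bases on each side. In the annotated chain the capitals mark a coding exon of 12 bases (chrX:73782298-73782309) between them. In the chain that led in the reads they mark 4 bases added to the end of exon 2 (chrX:73782671-73782674), with the 12-base exon absent.
Idh3g annotated chain: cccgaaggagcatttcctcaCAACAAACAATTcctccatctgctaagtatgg
Idh3g leading chain: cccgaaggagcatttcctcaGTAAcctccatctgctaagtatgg

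Ogdh codes for the 2-oxoglutarate-binding subunit of its dehydrogenase complex and lies on the plus strand of chromosome 11. The 3 coding exons shown next tell its main isoforms apart. The exon of 91 bases (chr11:6316765-6316855) and the exon of 103 bases (chr11:6316978-6317080) took each other's place, and the exon of 45 bases (chr11:6324878-6324922) is a cassette further downstream. Capitals mark the bases of the exchanged pair that were not identical in a global alignment, in which 57 of 88 aligned bases (64.8%) were identical.
Ogdh 91-base exon: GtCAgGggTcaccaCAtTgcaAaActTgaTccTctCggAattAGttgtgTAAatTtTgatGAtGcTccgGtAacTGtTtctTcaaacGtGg
Ogdh 103-base exon: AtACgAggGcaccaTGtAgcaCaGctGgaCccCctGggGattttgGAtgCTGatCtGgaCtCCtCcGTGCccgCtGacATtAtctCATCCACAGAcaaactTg
Ogdh 45-base exon: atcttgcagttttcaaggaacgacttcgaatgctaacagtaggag

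Idh3b codes for the beta subunit of isocitrate dehydrogenase 3 and lies on the minus strand of chromosome 2. Its last intron ended at either of 2 acceptors, 289 bases apart, and the first 30 bases after the upstream (chr2:130279697-130279726) and the downstream one (chr2:130279408-130279437) are shown because the chains part there, before their separate stop codons. Base by base without gaps, 19 of the 30 (63.3%) were identical, and capitals mark the others.
Idh3b upstream acceptor: gtAcgGacTCGagaCatgggAggCtaCAGc
Idh3b downstream acceptor: gtTcgAacCTCagaTatgggTggTtaTGCc

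Idh3a codes for the catalytic alpha subunit and lies on the plus strand of chromosome 9. Exon 2 (chr9:54589858-54589920) is shown with the 24 bases in capitals that a minor chain left out.
Idh3a exon 2: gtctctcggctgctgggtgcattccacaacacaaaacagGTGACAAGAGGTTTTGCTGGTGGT

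The libraries held 775048 mouse reads in replicate 1 and 924222 in replicate 2, of which the 9 genes took 2676 and 2863. Levels are given as CPM (counts scaled to a total of 1e6 mouse reads). They are not divided by transcript length, since 1 long read is taken to stand for 1 transcript molecule. Whether the libraries favoured some transcript lengths was not tested. Cortical markers of the labelled tissue were detected: Slc17a7, the vesicular glutamate transporter of cortical excitatory neurons, had 1060 and 1216 reads, and Tbr1 96 and 97. The libraries differed in some marker genes. Nrgn, another gene of the excitatory list, had 1505 and 3258 reads (log2 ratio of replicate 2 over replicate 1 of 0.86). Ttr of the choroid plexus had 28 and 228 (2.75) and the astrocyte gene Aldoc 853 and 1239 (0.28). All 3 passed the test described below. Each was the only gene of its list to pass, of 5 tested excitatory, 1 tested choroid plexus and 6 tested astrocyte genes. The median log2 ratio was -0.06 over the excitatory list and 0.19 over the astrocyte list. Of the marker lists, 6 of 7 striatal genes and 4 of 6 tested myelin genes were lower in replicate 2, with summed levels of 1196 against 385 CPM and 3294 against 2142 CPM in replicates 1 and 2. Of the red blood cell genes 3 of 4 were higher in replicate 2. In a bulk sample, fewer cells of a type and less RNA per cell cannot be told apart.

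The levels of the 9 genes spanned from 88.0 to 727 CPM (means of the 2 replicates), and the ranges of most neighbours in that order did not overlap. Mdh1, the cytosolic malate dehydrogenase (chr11:21556787-21572367), had 615 reads in replicate 1 and 611 in replicate 2, or 727 ± 93.6 CPM (SD, n = 2), which made it rank 135 of all genes. Mdh2, the mitochondrial enzyme (chr5:135778480-135790398), had 544 and 581 reads, or 665 ± 51.8 CPM. Both forms of malate dehydrogenase thus stood at the top, and their ranges overlapped.

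Idh3a (chr9:54586334-54604661) followed with 412 and 441 reads, or 504 ± 38.5 CPM. Got1, the cytosolic aspartate aminotransferase (chr19:43499752-43524605), had 322 and 317 reads, or 379 ± 51.2 CPM. Cs (chr10:128337734-128362479) had 284 and 289 reads, or 340 ± 38.0 CPM. The ranges of Got1 and Cs overlapped, while that of Idh3a lay above both and below that of Mdh2.

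Idh3b (chr2:130279309-130284547) had 196 and 270 reads, or 273 ± 27.8 CPM. Ogdh (chr11:6291633-6356642) had 120 and 158 reads, or 163 ± 11.4 CPM, and Idh3g (chrX:73778963-73786897) had 112 and 118, or 136 ± 11.9 CPM. Suclg1, the alpha subunit that both forms of succinyl-CoA ligase share (chr6:73248382-73276911), was the lowest with 71 and 78 reads, or 88.0 ± 5.10 CPM, at rank 2385. None of the ranges of these 4 genes overlapped in CPM. The ranges hold only the values of the 2 libraries. The 95% counting intervals of some neighbours in the order overlapped where their ranges did not, as for Ogdh and Idh3g.

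**Figure D1:**
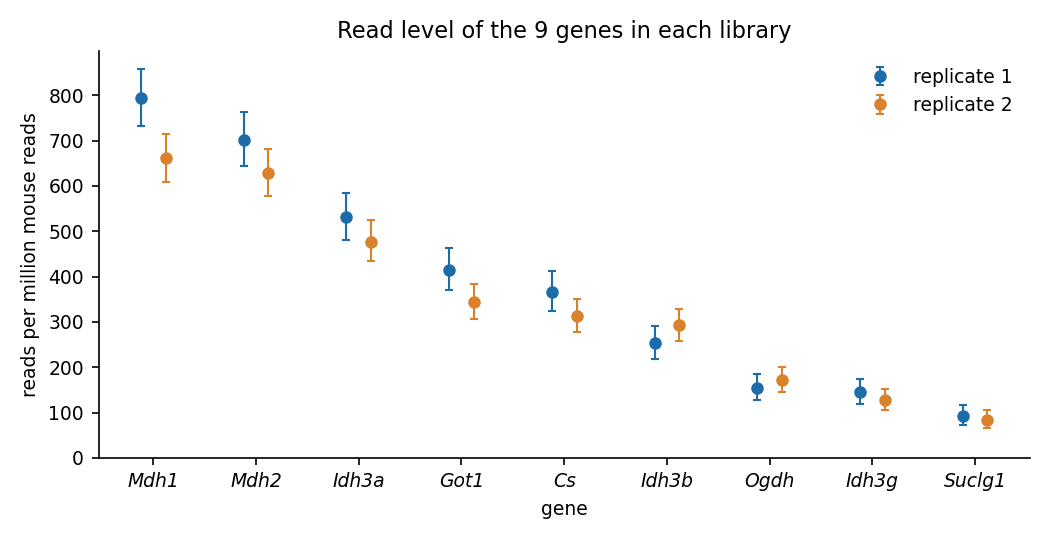
Level of each gene (horizontal axis) in CPM (vertical axis), with points for replicates 1 and 2 and bars for the exact 95% Poisson interval of the read count. Mdh1 and Mdh2 stand highest, at 661 to 793 and 629 to 702 CPM, and Suclg1 lowest, at 84.4 to 91.6 CPM.

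Between the 2 libraries none of the 9 genes passed the test. For each gene, its reads and the rest of the mouse reads were compared between the libraries (Fisher's exact test, two-sided), with Benjamini-Hochberg adjustment over the 11203 genes that had 10 reads or more. Of these genes 236 (2.11%) passed an adjusted p of 0.05, with 123 higher and 113 lower in replicate 2, and 1254 had an unadjusted p under 0.05. The counts for the 9 genes were 0 and 2. The test compares 2 libraries and no conditions.

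Mdh1 came nearest, at 793 CPM in replicate 1 and 661 in replicate 2, a log2 ratio of replicate 2 over replicate 1 of -0.26 (95% interval -0.42 to -0.10), with an adjusted p of 0.0619 in this exact test. Got1 was the other gene under the unadjusted threshold, at 415 and 343 CPM (log2 ratio -0.28, interval -0.50 to -0.05), with an adjusted p of 0.252 in the exact test. Over the 9 genes 7 log2 ratios were below 0 and 2, those of Idh3b and Ogdh, above it. Their median was -0.16, beside -0.01 over all tested genes, whose quartiles were -0.29 and 0.28. The log2 ratios ran from -0.28 to 0.21.

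The calls turned on whether mouse reads or spike-in reads set the library size. With the normalizations of edgeR and DESeq2, both from mouse reads, 245 and 242 genes passed, and 0 of the 9 did. With the ERCC spike-in reads as library size the median log2 ratio of all tested genes moved to -0.29, and 987 genes passed, 43 higher and 944 lower in replicate 2. Under that scaling 5 of the 9 genes passed, all lower in replicate 2 (Mdh1, Mdh2, Idh3a, Got1 and Cs), and the log2 ratios of Idh3b (-0.07) and Ogdh (-0.14) turned below 0. A change of library size shifts all genes alike, so Mdh1 by construction lay as far below the median as before. Which scaling fits these samples was not tested.

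Subunits of 1 enzyme were not at equal read levels. Isocitrate dehydrogenase 3 is built from alpha, beta and gamma subunits, with the alpha subunit as the catalytic one in each pair. Idh3a held 57.2% and 53.2% of the 720 and 829 reads of the 3 subunit genes in replicates 1 and 2. Idh3b held 27.2% and 32.6%, and Idh3g 15.6% and 14.2%. In reads, Idh3a exceeded Idh3b by 2.10 times in replicate 1 and 1.63 times in replicate 2 (1.87 ± 0.330, SD, n = 2), and Idh3g by 3.67 and 3.73 times (3.70 ± 0.0418). With annotated models alone the log2 ratio of Idh3a to Idh3g was 7.30 in place of 1.89, since nearly all reads of Idh3g lie in other models. That of Idh3a to Idh3b was 1.36 in place of 0.89. Single-exon models held 28 of 196 and 55 of 270 reads of Idh3b, against 1 of 412 and 2 of 441 of Idh3a. The counting interval of the log2 ratio of Idh3a to Idh3b excluded 0 in each library (0.82 to 1.31 and 0.49 to 0.93).

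Mdh1 exceeded Mdh2 by 1.13 and 1.05 times. The log2 ratio was 0.18 (0.01 to 0.34) in replicate 1 and 0.07 (-0.09 to 0.24) in replicate 2, so that the forms did not differ beyond counting error in the second library. Got1 exceeded its mitochondrial partner Got2 (82 and 74 reads) by 3.91 and 4.26 times (4.09 ± 0.249). With annotated models alone its log2 ratio to Got2 was 3.08 in place of 2.03. The order within the shuttle therefore differed between its enzymes in both libraries: near equal reads for the malate dehydrogenases, and several times more reads of the cytosolic form for the aminotransferases.

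Suclg1 pairs either with Sucla2, the ATP-forming beta subunit, or with Suclg2, the GTP-forming one. Sucla2 had 231 and 247 reads against 71 and 78 of Suclg1, a ratio of Suclg1 to Sucla2 of 0.309 and 0.317. Suclg2 had 34 and 30 reads, a ratio of 2.07 and 2.57. Ogdh stood at 1.44 and 1.68 times the reads of Dlst, the core subunit of its complex (83 and 94 reads), and at 0.711 and 0.981 times those of Dld, the dihydrolipoyl dehydrogenase shared with other complexes (169 and 161 reads). Its paralog Ogdhl, known from brain, had 66 and 80 reads, and Ogdh exceeded it by 1.81 and 1.97 times.

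Among the other genes of the pathway, 2 passed the test between the libraries. Of 17 tested genes in the list of other citric acid cycle genes 0 were higher and 1 lower in replicate 2, and of 10 tested shuttle genes 0 and 1. The lists of pyruvate entry (17 tested), glutamate and anaplerosis (12) and ketone and fatty acid entry (8) held 0 in either direction. Over all genes 2.11% passed, so these counts are near the background. At an unadjusted p under 0.05 the 5 lists held 2, 1, 2, 1 and 1 genes, in that order. The medians of the log2 ratio were -0.02, -0.13, -0.06, 0.05 and 0.02.

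In the list of other citric acid cycle genes, the gene past the test was Acly, which is not an enzyme of the cycle itself. It codes for the cytosolic ATP citrate lyase that returns citrate to acetyl-CoA for lipid synthesis. Acly had 217 and 169 reads (log2 ratio -0.61, interval -0.90 to -0.32). Its adjusted p in the exact test was 0.00405. The shuttle gene was Slc25a11, the oxoglutarate carrier that takes malate in exchange for 2-oxoglutarate, with 180 and 143 reads (log2 ratio -0.58, interval -0.90 to -0.27). Its adjusted p in the exact test was 0.0210. With annotated models alone Slc25a11 did not pass (adjusted p = 0.0681 by the same exact test). The striatal and myelin marker lists were lower in the same library, as given above, and their part in these differences was not tested.

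Among the abundant other cycle genes, Sdha, the flavoprotein of succinate dehydrogenase, stood at 525 ± 27.7 CPM and Sucla2 at 283 ± 21.8 CPM (SD, n = 2). Among carriers of the shuttle list, the glutamate carrier Slc25a22 stood at 375 ± 34.9 CPM and Slc25a11 at 193 ± 54.8 CPM. The aspartate-glutamate carriers were unequal: Slc25a12 stood at 143 ± 5.31 CPM with 114 and 129 reads, while Slc25a13 had 1 and 7 reads, too few for the test.

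Of the genes for pyruvate entry, Pdha1 and Pdhb, subunits of pyruvate dehydrogenase, stood at 506 ± 28.7 and 167 ± 4.90 CPM, and Dlat, its acetyltransferase, at 314 ± 57.3 CPM. Genes of glutamate metabolism were led by Gad1, the GABA-forming glutamate decarboxylase (263 ± 57.6 CPM), Glud1, glutamate dehydrogenase (228 ± 4.98 CPM), and Abat, GABA transaminase (123 ± 6.16 CPM). Oxct1, which activates ketone bodies, stood at 567 ± 64.6 CPM, Acat1 at 173 ± 5.64 CPM and Cpt1c at 167 ± 8.37 CPM.

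Reads of the 9 genes matched annotated transcripts more often than reads of all genes, with Idh3g, Ogdh and Idh3b as the exceptions. The authors' models carry a class: annotated (Known), an incomplete match to part of an annotated chain, 2 classes of new chain, or genomic (overlapping a gene without its splicing). By name, the new classes set chains of known splice sites apart from chains with a new site. That split did not hold throughout. Chains of Idh3g with 9 and 7, 4 and 5, and 4 and 4 reads were classed under known sites. Each of them holds an unannotated end of exon 2. Known models held 86.0% and 83.6% of the reads of the 9 genes in replicates 1 and 2, beside 72.4% and 71.5% over all annotated genes. Single-exon models held 2.32% and 3.11%, beside 10.4% and 11.3%.

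Mdh2, Mdh1, Got1 and Idh3a had 95.7% ± 0.450, 95% ± 1.29, 94.8% ± 1.61 and 92.0% ± 0.716 of reads in Known models (SD, n = 2). Cs and Suclg1 followed with 87.3% ± 0.583 and 86.7% ± 4.81, and in both most of the other reads were incomplete matches (11.2% ± 0.849 and 11.2% ± 7.80). Idh3b had 66.2% ± 4.54, Ogdh 44.1% ± 2.42 and Idh3g 1.74% ± 0.0642.

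**Figure D2:**
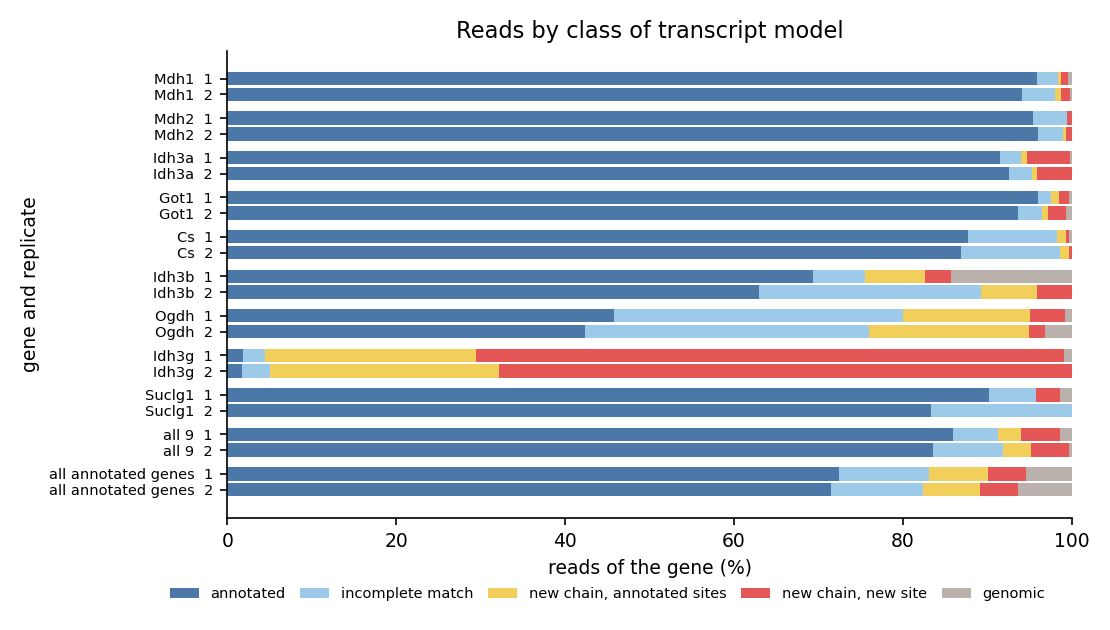
Share of reads (horizontal axis, percent) in each class of transcript model for each gene and replicate, for all 9 genes together and for all annotated genes. Idh3g is nearly all in new chains, with 1.79% and 1.69% of reads in Known models, and Ogdh has the largest share of incomplete matches, 34.2% and 33.5%. Classes are as named in the models, and Idh3g chains shown under annotated sites include some with an unannotated site.

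For Idh3b the classes cannot be compared between libraries. Single-exon reads that begin at the upstream acceptor and cover the last exon formed 1 model in each library, with 28 reads in replicate 1 and 55 in replicate 2. The model was classed as genomic in replicate 1 and as an incomplete match in replicate 2, although its ends differed by at most 3 bases. With single-exon models left out, 0 of the 9 genes passed the test between libraries, as before.

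Among spliced reads, how far they reached was similar in 7 genes. Single-exon reads were left out of this measure. They were 28 of 196 and 55 of 270 reads in Idh3b, and 16 of 284 and 19 of 289 in Cs. In the others of these 7 genes they were at most 0.893% of reads in either library. Among spliced reads that hold the last junction of the leading chain, the share that also reached its first intron was 94.4% to 97.8% in Cs, Idh3a, Idh3b, Idh3g, Mdh1, Mdh2 and Got1 over both libraries. In Ogdh, whose chain of 4127 bases and 23 exons is the longest of the 9, it was 68 of 104 reads (65.4%, 95% Wilson interval 55.8% to 73.8%) and 92 of 144 (63.9%, 55.8% to 71.3%). The decline was gradual: 91.3% and 93.1% still reached the intron 1682 bases from the 3′ end, and 78.8% and 79.2% that at 2269 bases.

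In Suclg1 the share was 64 of 68 reads (94.1%, 85.8% to 97.7%) and 65 of 78 (83.3%, 73.5% to 90.0%). Part of its incomplete reads shared a start. In 4 of 70 and 7 of 78 spliced reads the first exon began within 5 bases of the annotated start of Suclg1-205 (position 73260360), a transcript of the annotation that starts inside the gene.

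**Figure D3:**
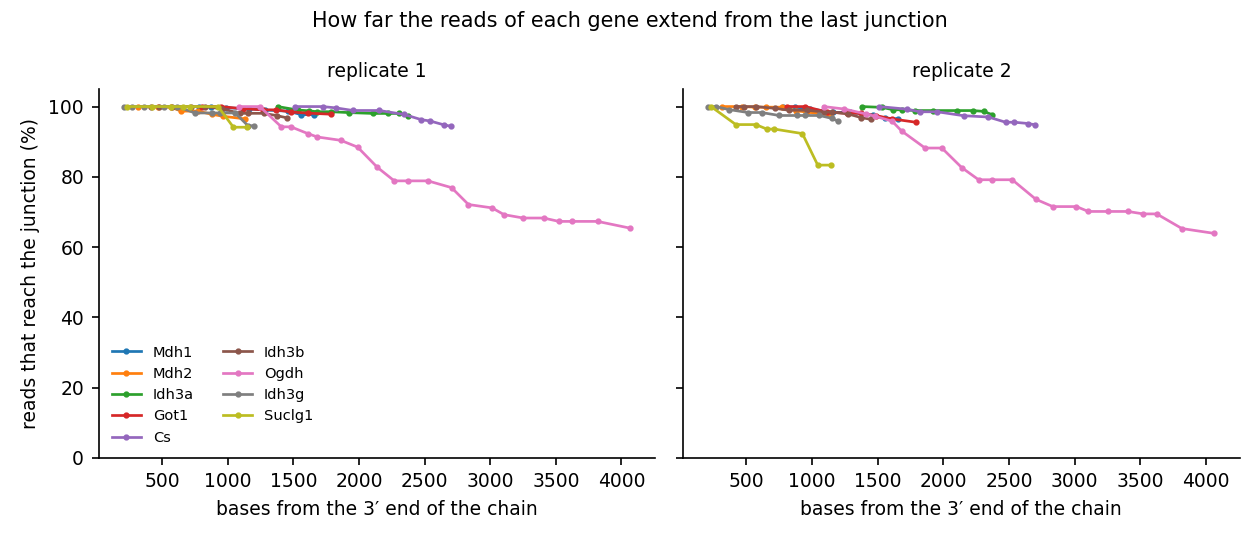
Share of spliced reads with the last junction of the leading chain that reach each junction upstream (vertical axis, percent) against the distance of that junction from the 3′ end (horizontal axis, bases), 1 panel for each replicate and 1 line for each gene. Single-exon reads are left out. Ogdh declines along its 4127 bases to 65.4% and 63.9%, while 7 genes stay at 94.4% or above.

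In 7 of the 9 genes 1 annotated chain held most isoform reads. Isoforms were chains of introns of the Known and both new classes, and the leading chain of each gene was set against the rest by Fisher's exact test in genes where each library had 50 such reads or more. Mdh2-201 held 99.4% and 98.9% of isoform reads in replicates 1 and 2, Mdh1-201 98.8% and 98.1%, and Cs-201 98.4% in each. Suclg1-201 held 93.9% and 100%, Got1-201 97.2% and 95.4%, Idh3a-205 94.0% and 95.1%, and Idh3b-201 87.2% and 85.4%. Over all 2631 genes of that depth the leading chain held a median of 88.2%. No leading share of the 9 genes passed the test between libraries, against 6 of 2532 tested genes (0.237%). The adjusted p of the exact test was 1 for each of the 9, and 0 stayed the count with a chi-square test over all isoforms.

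Idh3g stood apart in that its leading chain was not annotated. That chain held 76 of 108 isoform reads in replicate 1 (70.4%, 95% Wilson interval 61.2% to 78.2%) and 79 of 114 in replicate 2 (69.3%, 60.3% to 77.0%). The lead was an annotated chain in 2488 of the 2631 genes and a chain classed as having a new site in 32. Chains absent from the annotation held 98.1% and 98.2% of the isoform reads of Idh3g. Of 3614 genes that had 100 reads or more in all, 89 (2.46%) had as low a share of reads in Known models as Idh3g or a lower one, and the median was 80.6%.

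The leading chain of Idh3g departed from the annotated coding transcript Idh3g-201 at the joint shown above. The 12-base exon was held by 0 of 107 spanning reads in replicate 1 and 0 of 114 in replicate 2, which allows a share of up to 2.80% and 2.63% (3 counts). Exon 2 in its longer form of 46 bases was held by 99 of 105 spanning reads (94.3%, 88.1% to 97.4%) and 100 of 113 (88.5%, 81.3% to 93.2%). The annotated form of 42 bases was held by 2 of 105 (1.90%) and 5 of 113 (4.42%). Both libraries thus gave the same picture, and the difference between them did not pass (adjusted p = 1, exact test).

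The lengths of these parts matter for the reading frame. Leaving out the 12-base exon alone keeps the frame of the reference, with 1167 coding bases before the stop in place of 1179. With the 4 bases added as well, the reference sequence of the leading chain reaches a stop codon after 138 coding bases, 934 bases before its last junction. The deposited models hold coordinates and no read bases, so whether the reads carried the bases of the 12-base exon at this joint was not tested.

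Exons this short were rarely held in other genes too. Over all genes, annotated internal exons present in every coding transcript that spans them were counted where at least 20 reads spanned them in each library. All 7 exons of 3 to 9 bases and all 6 of 10 to 15 bases, that of Idh3g included, were held by under 5% of spanning reads. Of 134 exons of 16 to 27 bases 14 (10.4%) were under 5%, with a median of 97.4%, and of 1508 exons of 28 to 50 bases 5 (0.332%), with a median of 99.1%. The exon of Idh3g was thus 1 of 13 counted exons of up to 15 bases, each held by under 5% of spanning reads.

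**Figure D4:**
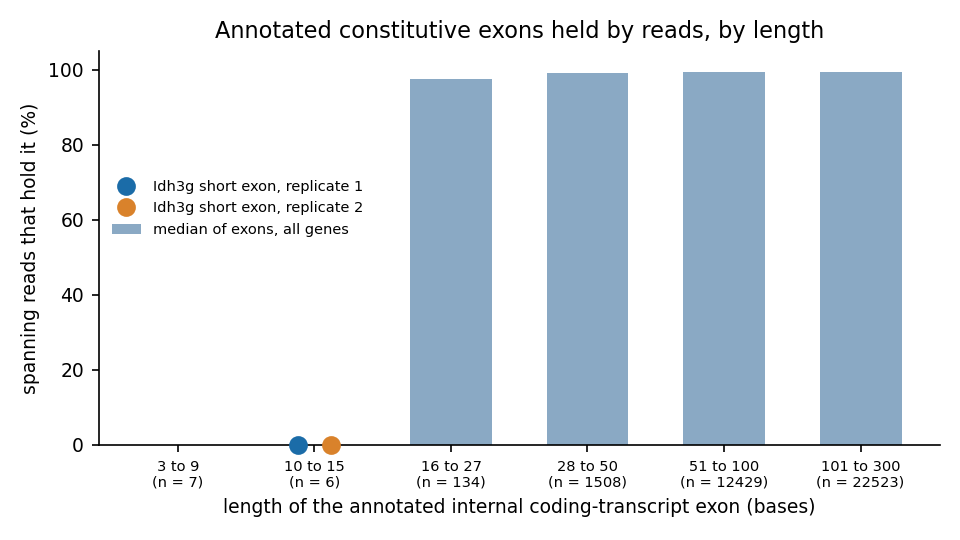
Median share of spanning reads (both libraries together) that hold an annotated exon (vertical axis, percent) in bins of exon length (horizontal axis, bases, with the number of exons), with points for the 12-base exon of Idh3g in each replicate. The median is 0% in both bins up to 15 bases, where the Idh3g points also lie, and 97.4% or more in each longer bin.

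Idh3g also kept introns more often than the other 8 genes. An intron of 268 bases (chrX:73779709-73779976) was retained in 15 of 111 reads in replicate 1 (13.5%) and 17 of 117 in replicate 2 (14.5%). An intron of 190 bases (chrX:73780708-73780897) was retained in 20 of 108 (18.5%) and 24 of 114 (21.1%). These were the only introns of the 9 genes above 5% in both libraries, 2 of 94 counted introns (2.13%), beside 1038 of 46373 over all genes (2.24%). Both introns were kept together in a chain with 9 and 7 reads, and the shorter one alone in a chain with 4 and 4 reads. A further chain with 4 and 5 reads joined exon 2 to another donor of the first exon, and a chain with 2 and 3 reads lacked the 12-base exon but ended exon 2 at its annotated site.

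Ogdh was spread over more isoforms than any other of the 9 genes, with Ogdh-201 at 31 of 78 isoform reads (39.7%, 29.6% to 50.8%) and 43 of 100 (43.0%, 33.7% to 52.8%). Ogdh-203 held 16 (20.5%) and 19 (19%). The share of Ogdh-201 turned on the models counted: its mean of 41.4% was 27.9% with incomplete matches kept as chains, 60.3% with annotated models alone and 62.4% with models of at least 5 reads. The exons that set them apart are those printed above. Splicing of this region is known in mammals and has been linked to the calcium sensitivity of the enzyme.

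Of 71 reads of replicate 1 that spanned the region, 28 (39.4%, 28.9% to 51.1%) held the 91-base exon and 43 (60.6%, 48.9% to 71.1%) the 103-base exon. In replicate 2 the counts were 42 (41.6%, 32.5% to 51.3%) and 59 (58.4%, 48.7% to 67.5%) of 101. No read held both and none lacked both, which allows a share of up to 4.23% and 2.97% for either (3 counts). The 45-base exon was in 30 of 71 (42.3%) and 39 of 101 (38.6%). No difference of these shares between libraries passed the test: of 10175 tested exons in 3265 genes 28 (0.275%) passed, and of the 13 tested exons of the 9 genes (8 of Idh3g, 4 of Ogdh and 1 of Suclg1) 0 did, all at an adjusted p of 1 (exact test). The fourth exon of Ogdh was its second exon of 248 bases, held by 69 of 76 and 93 of 100 spanning reads.

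The choice within the pair went with the cassette on the same molecule. Of reads with the 91-base exon, 25 of 28 in replicate 1 (89.3%, 72.8% to 96.3%) and 35 of 42 in replicate 2 (83.3%, 69.4% to 91.7%) also held the 45-base exon. Of reads with the 103-base exon only 5 of 43 (11.6%, 5.07% to 24.5%) and 4 of 59 (6.78%, 2.67% to 16.2%) did. The intervals did not overlap in either library. The 4 combinations accordingly held 53.5% and 54.5% (103-base exon without the cassette, as in Ogdh-201), 35.2% and 34.7% (91-base exon with it, as in Ogdh-203), 4.23% and 6.93% (91-base exon without it) and 7.04% and 3.96% (103-base exon with it).

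**Figure D5:**
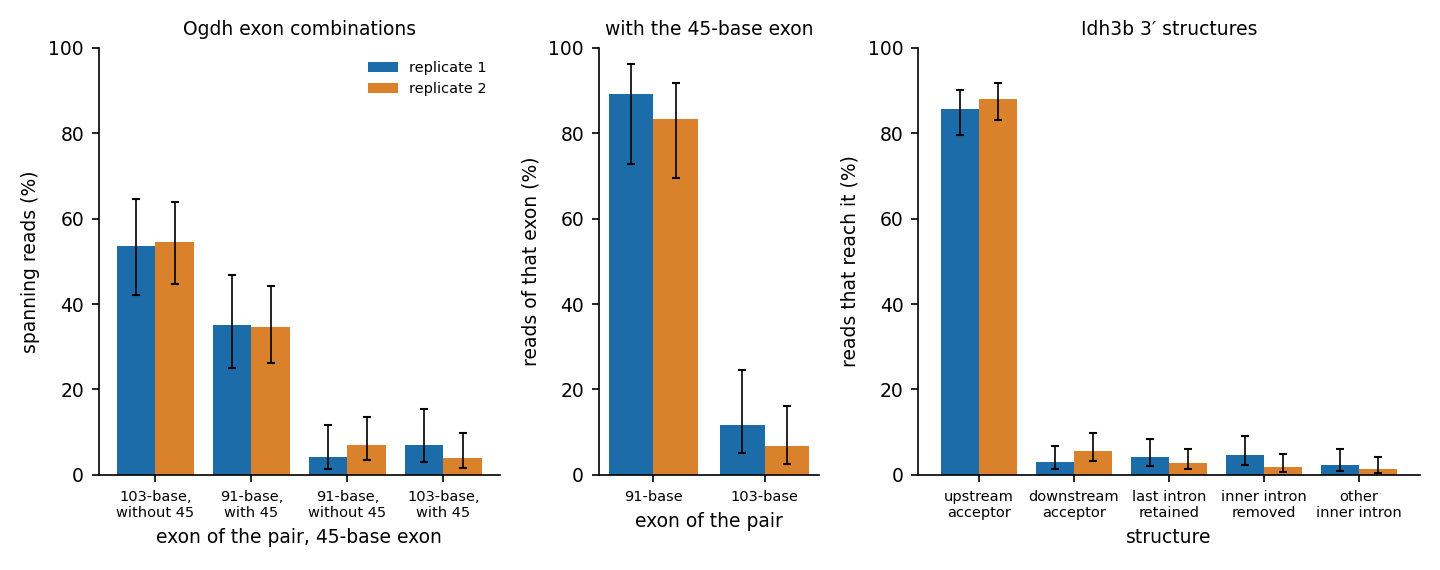
Shares of spanning reads (vertical axes, percent) for the 4 combinations of the Ogdh exons, for the 45-base exon among reads of each exon of the pair, and for the structures at the 3′ end of Idh3b (spliced reads only), with bars for replicates 1 and 2 and 95% Wilson intervals. The 45-base exon goes with the 91-base exon in 89.3% and 83.3% of its reads and with the 103-base exon in 11.6% and 6.78%.

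Each of the 4 Ogdh combinations keeps the reading frame of the reference to the annotated stop. They hold 3069, 3102, 3057 and 3114 coding bases before it, in the order just given. With annotated models alone, the mixed combinations drop out by construction and the 91-base exon stood at 31.0%, mean of both libraries. The gene also varied at its start. Of 76 and 100 reads that began before the second exon, 63 (82.9%) and 82 (82.0%) used the donor of Ogdh-201 at position 6291693, 7 (9.21%) and 7 (7%) that at 6291769, and 3 (3.95%) and 8 (8%) that at 6292291. All 3 are annotated.

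Idh3b joined its last intron mostly to the upstream acceptor. The 28 and 55 single-exon reads over the last exon are not counted here. Of 168 and 210 spliced reads that reached this part, 144 (85.7%, 79.6% to 90.2%) and 185 (88.1%, 83.0% to 91.8%) held the unspliced last exon of Idh3b-201. The downstream acceptor was used by 5 (2.98%, 1.28% to 6.78%) and 12 (5.71%, 3.30% to 9.72%). Among reads joined to either acceptor its share was 5 of 161 (3.11%) and 12 of 204 (5.88%), a mean of 4.49% ± 1.96 (SD, n = 2). The chain is not annotated, though both of its splice sites are.

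An inner intron of 118 bases, which the annotation removes in Idh3b-204, was removed from the last exon in 8 (4.76%) and 4 (1.90%) reads. Other inner introns were removed in 4 and 3 reads, among them an unannotated chain with 3 and 2 reads, and the last intron was retained in 7 and 6. In the reference sequence the chain with the downstream acceptor ends at another stop, after 1140 coding bases in place of 1152. Removal of the inner intron leaves the stop of Idh3b-201 in place, 87 bases before the last junction. Isoforms of the beta subunit that differ at their end in this way are known from other mammals.

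Idh3a used an earlier donor in exon 2 in 10 of 402 spanning reads in replicate 1 (2.49%, 1.36% to 4.52%) and 10 of 429 in replicate 2 (2.33%, 1.27% to 4.24%). The exon is then 39 instead of 63 bases long and lacks the capital bases shown above. The frame is kept, with 1128 coding bases in place of 1152. Other unannotated chains of Idh3a held 5 and 2 reads (a first exon with another donor) and 2 and 4 reads (a donor of exon 2 that lies 2 bases upstream).

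The remaining genes had few unannotated chains seen in both libraries. For Cs it was a chain that retained 1 intron (chr10:128358534-128359169), with 3 and 2 reads. Mdh1, Mdh2, Got1 and Suclg1 had none with at least 5 reads in all and a read in each library. Unannotated chains together held 7 and 11 of the 597 and 586 isoform reads of Mdh1, and 3 and 6 of the 522 and 564 of Mdh2.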

How the data were processed

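Long-read RNA sequencing was measured in 2 libraries of mouse left cerebral cortex. The authors deposited whole-number read counts per transcript model with no normalization, and the exon structure of each model. Per the deposited text, the models of a library were built without the other one, against mm10 and GENCODE M21, and TALON is named in the models. No aligner or software version is given in the sources used here. The deposited coordinates (unit other) are exon starts and ends, 1-based.

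From these files, reads were summed per gene over all its models, and models were matched between libraries by their chain of introns. CPM values divide by all mouse reads of the library. Genes (at least 10 reads over both libraries), leading isoforms (at least 50 isoform reads in each) and internal exons (at least 20 spanning reads in each and a share of 5% to 95%) were tested between the libraries by two-sided Fisher's exact tests in scipy 1.17.1, with Benjamini-Hochberg adjustment over all features. Log2 ratios add 0.5 reads. Shares carry 95% Wilson intervals. Intervals and floors of 3 counts cover counting error only. Normalizations of edgeR 4.0.16 and DESeq2 1.42.0, with exact binomial tests, were alternatives. The tests were tested on simulated data.

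Named were all 9 genes, the 3 most abundant genes of each pathway list and those past the test. The rule also took isoforms of at least 10% in both libraries and every tested exon. It took unannotated chains with at least 5 reads in all and 1 in each library as well. Not every such exon, nor every such chain of Ogdh, is given singly above. One gene that this rule names is not reported here. The members and lists were chosen with earlier results of these data known. Counts of short exons, retained introns, exon combinations, read reach and reading frames were added after the reads were seen.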

Additional observations from a re-analysis of the deposited data

Results flagged for a closer look

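Reads of unannotated models on the strand opposite a member's exons lie outside the comparisons above. Opposite Mdh1 they numbered 9 over both libraries (2 in replicate 1 and 7 in replicate 2), and opposite Ogdh 6 (4 and 2). No count of such reads over all genes stands beside these, so whether they exceed a background was not tested. Opposite the other 7 genes there were at most 2 such reads in either library.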

How the results depend on the processing

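No paired analysis was possible because the labels give 1 group. For the 9 genes, 0 passed the test between libraries under 6 of the 7 alternatives (annotated models alone, where Idh3g had too few reads to be tested; incomplete, genomic and antisense models left out; TMM; DESeq2 size factors; no minimum of reads; and spliced models alone, an alternative added after the data were seen). With ERCC reads as library size 5 passed, 14 pathway genes passed in place of 2, and 987 of all genes in place of 236; Idh3b and Ogdh reversed to -0.074 and -0.14. With annotated models alone 1 pathway gene passed, Acly, whose adjusted p ran from 1.88e-07 to 0.0355 over all its alternatives. Leading shares that passed over all genes numbered 6, but 2 with annotated models alone, 39 with models of at least 5 reads and 16 by the chi-square test; tested exons that passed numbered 28, but 5, 156 (the same 2 settings) and 14 with incomplete matches left out. Of the 9 genes 0 passed, but with annotated models alone only 3 of their leading shares and 4 of their exons could be tested, and with models of at least 5 reads 4 and 10. By construction the unannotated downstream acceptor of Idh3b fell to 0% with annotated models alone. Without models under 5 reads, Known models held 91.6% of the reads of the 9 genes in place of 84.8%. With annotated models alone the log2 ratios of Idh3a to Idh3b and to Idh3g were 1.36 and 7.30 in place of 0.89 and 1.89. Those of Idh3b to Idh3g and Got1 to Got2 were 5.93 and 3.08 in place of 1.00 and 2.03. Such a ratio moves with the shares of reads in Known models. These were 92.0% for Idh3a, 66.2% for Idh3b, 1.74% for Idh3g and 94.8% for Got1 (means of both libraries). The share of Got2 is not given. Leaving out either replicate gave a downstream acceptor share of 3.11% to 5.88%. Read depth limits the shares of single exons and chains, given above by their intervals.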

Other observations

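Reads of annotated genes on the opposite strand overlapped 3 of the 9 genes. Over the exons of Idh3b, models of the opposite strand held 41 and 35 reads in replicates 1 and 2, over those of Mdh1 13 and 16, and over those of Idh3a 2 and 3, counts that include the unannotated ones given above. On the same strand, reads given to another gene overlapped the exons of the 9 genes in 0 cases except 1 read of replicate 2 at Ogdh.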
